A study of Homo sapiens with 16 samples.

Results

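The 39 genes described here encode collagens, laminins and other proteins of the basement membrane and the matrix beside it. They were picked by symbol from a table of 60448 gene identifiers, by a rule that names genes and sets no level. Earlier results of these data were known when the list was chosen. They comprise 6 fibrillar collagen genes, 6 type IV collagen genes, 3 type VI collagen genes, 7 genes of other collagens, 8 laminin chain genes, 5 genes of linkers, proteoglycans and a cross-linking enzyme, and 4 genes of matrix glycoproteins. Their RNA was measured in 16 libraries of human lung adenocarcinoma cells, as 8 groups of 2 libraries. Of these cells, A549 is an established line, and A549/cDDP was derived from it and is resistant to cisplatin.

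Untransfected A549 and untransfected A549/cDDP each received cisplatin, a platinum drug that cross-links DNA, or its solvent for 24 h. A549/cDDP was also transfected with 12 pmol of a control gapmer or of one that targets SCAT7, a long noncoding RNA, and collected 48 h later, the last 24 h in cisplatin or solvent. A gapmer is a short antisense DNA with modified ends; RNase H cuts the RNA that it pairs with. Cisplatin is labelled at 15 mM, a unit that was not checked here, and A549/cDDP was maintained in medium with the same labelled concentration, which A549 was not. A transfected A549 group was not analysed here, so gapmer effects refer to the resistant line alone. Whether A549/cDDP is 1 clone, and whether replicates were separate cultures, is not given in the sources used here, so the spread behind each p-value is that between these libraries and may be technical.

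A basement membrane is a thin sheet of matrix under epithelia, built on networks of laminin and type IV collagen. Laminins are trimers of an alpha, a beta and a gamma chain that bind cells through integrins, and type IV collagen trimers are joined to the laminin network by nidogens and the proteoglycan perlecan. Fibrillar, anchoring and transmembrane collagens tie this sheet to the tissue on either side. Alveolar epithelium, the tissue from which lung adenocarcinoma can arise, rests on such a sheet, and its cells make part of it.

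The 6 type IV collagen genes lie as 3 head-to-head pairs, each read outward from a common stretch of DNA, and the starts of a pair can be seen in 1 window. RefSeq promoter windows (GRCh38.p14, 250 bases before to 50 after a gene's start) were held for 31 of the 39 members. The windows of COL4A1 and COL4A2 on chromosome 13 shared 226 bases, with the starts 127 bases apart. Those of COL4A3 and COL4A4 on chromosome 2 shared 82 bases, with the starts 419 bases apart. On chromosome X the windows of COL4A5 and COL4A6 shared 121 bases and the starts were 380 bases apart. The plus-strand window of each pair is printed because the partners of a pair are compared throughout; the regions are chr13:110307034-110307333, chr2:227164374-227164673 and chrX:108439588-108439887. Capitals mark GGGCGG or CCAAT on either strand, so CCGCCC and ATTGG are the same 2 motifs read from the opposite strand.
COL4A2: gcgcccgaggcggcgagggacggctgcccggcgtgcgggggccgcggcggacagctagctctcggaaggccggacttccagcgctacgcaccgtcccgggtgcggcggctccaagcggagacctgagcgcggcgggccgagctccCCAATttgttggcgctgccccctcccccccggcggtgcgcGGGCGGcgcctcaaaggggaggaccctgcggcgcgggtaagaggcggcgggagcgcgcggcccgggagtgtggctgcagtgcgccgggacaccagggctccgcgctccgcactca
COL4A3: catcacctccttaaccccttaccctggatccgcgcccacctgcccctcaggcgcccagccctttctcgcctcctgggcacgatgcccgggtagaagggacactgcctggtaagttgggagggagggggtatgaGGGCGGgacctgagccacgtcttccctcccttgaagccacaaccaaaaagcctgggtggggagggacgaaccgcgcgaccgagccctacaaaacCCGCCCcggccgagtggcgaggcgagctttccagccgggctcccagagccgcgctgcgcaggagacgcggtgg
COL4A5: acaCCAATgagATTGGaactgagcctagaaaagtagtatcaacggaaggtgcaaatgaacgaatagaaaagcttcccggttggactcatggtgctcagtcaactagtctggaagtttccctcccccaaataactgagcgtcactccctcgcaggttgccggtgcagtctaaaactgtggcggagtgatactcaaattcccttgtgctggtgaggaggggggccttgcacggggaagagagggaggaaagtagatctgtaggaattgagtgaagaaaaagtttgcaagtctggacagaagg

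The 3 windows differ in their letters. G and C made up 77.7% of the COL4A2 window, 67.7% of the COL4A3 window and 49.3% of the COL4A5 window. GGGCGG occurred 1 time in the COL4A2 window, 2 times in that of COL4A3 and 0 times in that of COL4A5, and CCAAT occurred 1, 0 and 2 times. Over both strands, GGGCGG was present in 23 of the 31 member windows (74.2%), against 44.6% of 27305 windows of all genes. CCAAT was present in 9 (29%, against 35.7%), and TATAAA in 4 (12.9%, against 12.0%): COL6A2, COL7A1, COL13A1 and COL17A1. TGANTCA was present in 1 member window, that of LAMA3 (3.23%, against 7.76%). The 27305 windows were not chosen by level and include genes not tested here, so these shares compare unlike sets. A match describes letters in this window and is not a binding site.

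Values are FPKM, that is, fragments divided by gene length and by the total of the library. Reading the low values as whole fragments gave 31300000 to 43060000 fragments per library, with 31300000 to 33360000 in the 4 SCAT7 gapmer libraries and 42380000 to 43060000 in the 4 control gapmer libraries. The SCAT7 locus transcript ELF3-AS1 read 2.56 and 3.57 FPKM after the control gapmer in solvent, against 0.594 and 0.837 after its own gapmer, a log2 difference of -1.54 (limma, adjusted p = 7.5e-06). With cisplatin the libraries read 3.73 and 3.23 against 1.69 and 2.18 (-0.71, limma, adjusted p = 0.00355). CDKN1A, a gene that cells raise after DNA damage, went from 84.2 to 1623 FPKM with cisplatin in A549 and from 576.5 to 709.5 in A549/cDDP (group means). Of 10 epithelial and lung adenocarcinoma markers, 6 to 8 reached 1 FPKM in each group: the keratins KRT8 and KRT18 were at 599 FPKM or more in every library, while the surfactant genes SFTPB and SFTPC read at most 0.0597 and 0.194 and the lung lineage gene NKX2-1 was at 0 in all 4 A549 libraries. Further, 0 of 6 endothelial markers reached 1 FPKM in any group. Of 8 immune cell markers, 1 or 2 reached 1 FPKM in each group. ITGAM did so in every group, with group means of 4.57 to 14.3 FPKM. CD14 did so in A549 alone, with group means of 1.74 in solvent and 1.56 in cisplatin. ITGAM was higher in A549/cDDP in solvent (log2 difference 1.07) and rose with cisplatin in A549 (1.55).

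Of the 39 members, 33 were at 0.5 FPKM or more in every library and 17 were above 100 FPKM in at least 1. COL1A2, COL3A1, COL6A3 and LAMA1 were under 0.5 FPKM in all 16 libraries and were not tested, which left 35. COL1A2, the second chain of type I collagen, ran from 0 to 0.349 FPKM, while COL1A1, the first chain, ran from 7.2 to 52.7. COL3A1, the chain of type III collagen, ran from 0.0442 to 0.389, and LAMA1, the alpha chain of the first laminin described, from 0.0139 to 0.247. COL6A3, the third chain of type VI collagen, ran from 0 to 0.186, while its partners COL6A1 and COL6A2 reached 201 and 116 FPKM. Type I and type VI collagen were thus each read from an incomplete set of their usual chains.

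The highest levels per length were those of TGFBI (369.6 to 1063 FPKM), a collagen-binding secreted glycoprotein, and COL7A1 (294 to 878), the chain of the anchoring fibrils. LAMA5, an alpha chain of many epithelial laminins, ran from 304 to 590.5 FPKM and COL4A2 from 61.7 to 733. All members together made up 0.408% to 0.447% of the summed FPKM in the 4 A549 libraries and 0.638% to 0.762% in the 12 A549/cDDP libraries. These shares are not corrected for the few very abundant genes that can move a library total.

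**Figure D1:**
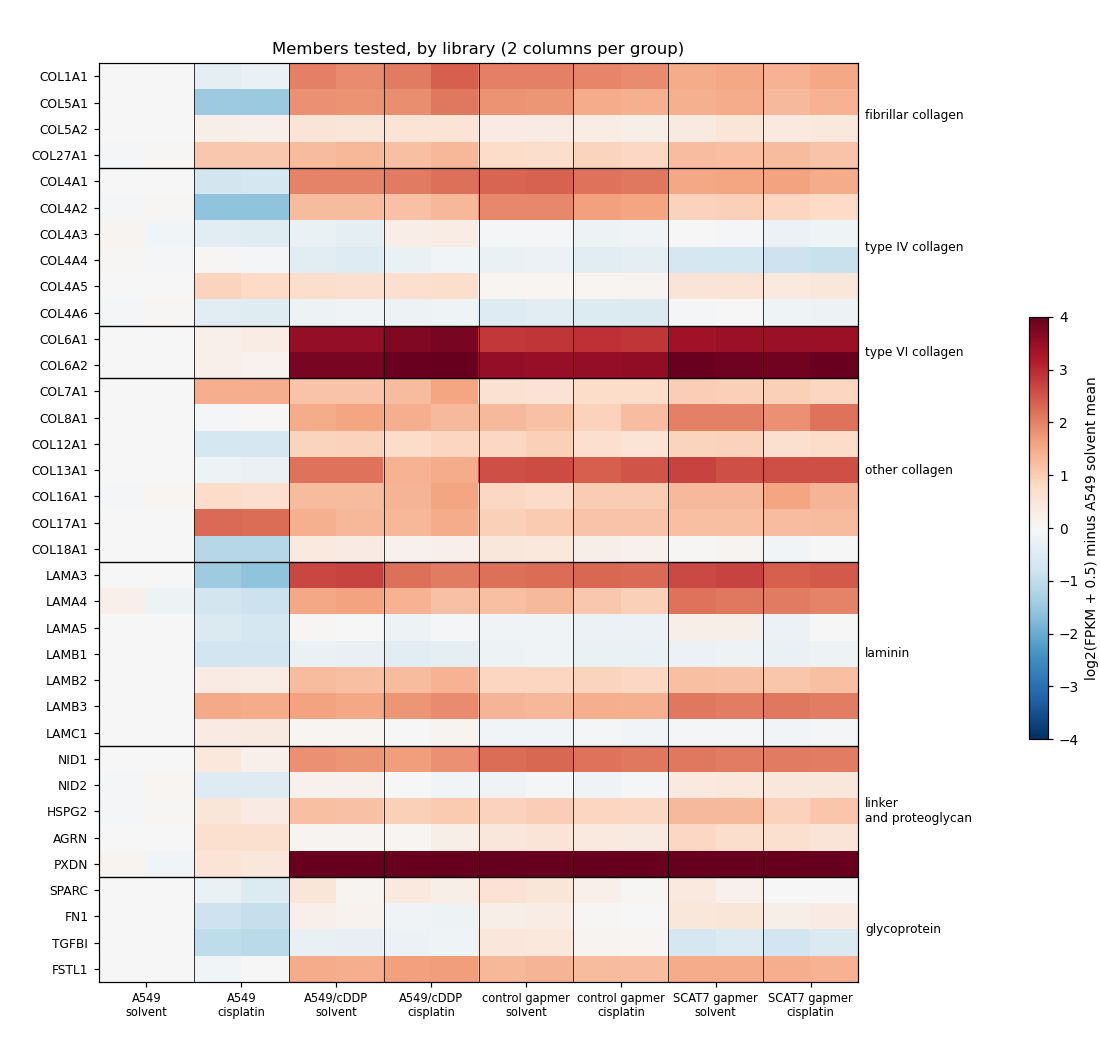
Heat map of the 35 tested members (rows, grouped by role) in the 16 libraries (2 columns per group). Colour is log2(FPKM + 0.5) minus the mean of the A549 solvent libraries and ends at -4 and 4, so PXDN, which was 6.21 higher in A549/cDDP in solvent, lies beyond the scale. COL6A1, COL6A2 and PXDN are dark red in all 12 A549/cDDP libraries, and the A549 cisplatin columns hold both red and blue rows.

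The first comparison set the resistant line against its parent in solvent. Most tested members were higher in A549/cDDP: 27 were higher and 5 lower, on an adjusted p under 0.05 in limma. Over all 17198 genes tested, 42.7% were higher, 27.5% lower and 70.2% called in either direction. The median difference of the members was 1.23 on the log2(FPKM + 0.5) scale, on which every log2 value here is given, against 0.15 over all genes tested. On that scale, which shrinks the folds of low genes, 20 members were at least 2-fold higher and 0 at least 2-fold lower. Since each library is a bulk sample, fewer cells of a type and less RNA per cell cannot be told apart.

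Among the type IV chains, COL4A1 and COL4A2, which form the network common to most basement membranes, were higher in the resistant line. COL4A1 stood at 39.5 and 39.1 FPKM in A549 and at 157 and 157 in A549/cDDP (log2 difference 1.99 ± 0.05 SE, limma, adjusted p = 9.4e-12). COL4A2 stood at 185 and 198 against 464 and 464 (1.28 ± 0.05, limma, adjusted p = 2.28e-10). The difference was smaller for COL4A2 than for COL4A1. COL4A3 and COL4A4, chains known from the glomerular and alveolar basement membranes, were lower: COL4A3 at 6.96 and 6.04 against 5.31 and 4.87 (-0.32, limma, adjusted p = 0.0021).

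COL4A4 read 1.87 and 1.69 against 1.2 and 1.1 (-0.47, limma, adjusted p = 0.00213). In the third pair the partners parted in sign. COL4A5 was higher, at 37.2 and 37 against 60.8 and 57.7 (0.67, limma, adjusted p = 1.56e-08), and COL4A6 was lower, at 27.5 and 28.8 against 24.4 and 25.3 (-0.17, limma, adjusted p = 0.00284).

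The fibrillar collagens tested were all higher. COL1A1 stood at 9.39 and 9.8 FPKM in A549 and at 40 and 36.6 in A549/cDDP (log2 difference 1.94 ± 0.09 SE, limma, adjusted p = 1.92e-09). COL5A1, the chain that helps to start collagen fibrils, was 1.80 higher, COL27A1 1.30 higher and COL5A2 0.51 higher. The type VI chains, which form beaded filaments next to basement membranes, were among the members with the largest differences. COL6A1 stood at 13.8 and 14 against 164 and 164 (3.51 ± 0.04, limma, adjusted p = 2.56e-14), and COL6A2 at 6.14 and 6.33 against 93.2 and 94.1 (3.80 ± 0.05, limma, adjusted p = 9.11e-14). Both were more than 10-fold higher by the ratio of means, 11.8-fold and 15-fold. They lie 93 kb apart on chromosome 21, on the same strand (COL6A1 at chr21:45981737-46005050, COL6A2 at chr21:46098097-46132849).

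All 7 other collagens were higher in A549/cDDP. The transmembrane collagen COL13A1 stood at 0.278 and 0.274 FPKM against 3.03 and 3 (2.18 ± 0.09). COL8A1, a short-chain collagen, stood at 0.0288 and 0.015 against 0.954 and 1.05. Both reached the level for testing only through the A549/cDDP libraries, so their p-values are left out. Both are in the count of higher members. COL17A1, the transmembrane collagen of hemidesmosomes, was 1.37 higher, COL16A1 1.26, COL7A1 1.14, COL12A1 0.92 and COL18A1, the source of endostatin, 0.36.

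The laminin chains did not move as 1 group. LAMA3, the alpha chain of the laminin of epithelial anchoring, stood at 10.7 and 10.9 FPKM in A549 and at 72.1 and 72.8 in A549/cDDP (2.69 ± 0.06, limma, adjusted p = 6.9e-12). Its beta partner LAMB3 was 1.59 higher. LAMA4, a chain known from vessels and mesenchyme, was 1.58 higher and LAMB2 1.23 higher. LAMB1, the more common beta chain, was lower, at 269 and 265 against 222 and 218 (-0.28, limma, adjusted p = 9.33e-06). LAMC1, the gamma chain of most laminins, was 0.09 higher (limma, adjusted p = 0.0285), a call whose sign changed with median ratio scaling. LAMA5 did not pass the test (log2 difference 0.01, limma, adjusted p = 0.888).

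PXDN, peroxidasin, had the largest difference of any member. This enzyme forms the sulfilimine cross-links of type IV collagen and lies at chr2:1631887-1744852. It stood at 2.34 and 1.95 FPKM in A549 and at 193 and 197 in A549/cDDP (6.21 ± 0.07, limma, adjusted p = 2.56e-14), 90.8-fold by the ratio of means. In the 8 transfected A549/cDDP libraries it ran from 159 to 180.1 FPKM, with all of them far above the parent line. NID1, nidogen-1, stood at 2 and 2.01 against 8.43 and 8.1 (1.80 ± 0.08, limma, adjusted p = 8.41e-10), and HSPG2, perlecan, was 1.19 higher. AGRN, agrin, did not pass the test (0.10, limma, adjusted p = 0.126). Of the glycoproteins, FSTL1 was 1.48 higher and FN1, fibronectin, 0.17 higher, TGFBI was 0.31 lower on that scale (-0.31, limma, adjusted p = 0.000508), and SPARC did not pass the test (0.31, limma, adjusted p = 0.079).

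Line differences held across the drug and the transfections for many members. In 17 members all 12 A549/cDDP libraries lay above all 4 A549 libraries, which was true of 21% of all genes tested. These were COL1A1, COL4A1, COL4A2, COL5A1, COL6A1, COL6A2, COL8A1, COL12A1, COL13A1, COL16A1, LAMA3, LAMA4, LAMB2, NID1, HSPG2, PXDN and FSTL1. Of these, COL8A1 and COL13A1 reached the level for testing only through A549/cDDP. All 12 lay below in 1 member, COL4A4, against 12.2% of genes. Median ratio scaling moved the median over all genes from 0.15 to 0.02 in solvent, moved the share of higher among all calls from 60.8% to 49.7%, and ended the calls of LAMC1, NID2 and FN1. Quantile normalization ended those of NID2 and TGFBI. Of 10 fibroblast and mesenchymal markers, 2 reached 1 FPKM in either line, ACTA2 and THY1; the summed level of the list was 6.98 to 7.71 FPKM in A549 in solvent and 42.9 to 43.9 in A549/cDDP, mostly ACTA2. Of the 3 listed genes high enough to test, ACTA2 (2.93) was higher and THY1 did not pass. FAP read 0 and 0 against 0.318 and 0.394 FPKM (0.77), but it reached the level for testing only through the SCAT7 gapmer libraries. Of the other 7, PDGFRB had group means of 0.0301 and 0.162, and LUM and PRRX1, at group means of 0.0793 and 0.0089 in A549, were at 0.

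The epithelial list moved with the line as well, with 3 of 8 tested genes higher and 5 lower (median -0.56, against 0.15 over all genes). E-cadherin, CDH1, read 14.5 and 14.5 FPKM in A549 against 3.02 and 2.83 (-2.13, limma, adjusted p = 1.14e-09), and EPCAM read 3.81 and 3.15 against 0.953 and 1.01 (-1.42, limma, adjusted p = 7.35e-06). KRT7, KRT8 and KRT18 were lower too, and KRT19, NKX2-1 and NAPSA higher. NKX2-1, at 0 in A549, reached the level for testing only through the A549/cDDP libraries. The part of either list in the matrix differences was not tested.

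The next comparison was cisplatin against solvent in A549. Of the 35 members tested, 15 rose and 17 fell, where 33.3% of all genes tested rose, 27.1% fell and 60.4% were called. The members' median change was -0.07, against 0.06 over all genes. At least 2-fold changes on this scale went in both directions, with 4 up (COL17A1, LAMB3, COL7A1 and COL27A1) and 5 down (COL4A2, LAMA3, COL5A1, COL18A1 and TGFBI). By the ratio of means LAMA4 was also over 2-fold lower (2.33-fold). The members past 2-fold split within families and within trimers.

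Among the type IV chains, COL4A2 stood at 185 and 198 FPKM in solvent and at 61.7 and 62.4 in cisplatin (log2 change -1.61 ± 0.05 SE, limma, adjusted p = 3.85e-11). COL4A1 went from 39.5 and 39.1 to 23.2 and 24.2 (-0.72, limma, adjusted p = 7.07e-08). Both fell, and the ratio of COL4A2 to COL4A1 went from 4.69 and 5.05 to 2.66 and 2.58. COL4A5 and COL4A6, which start 380 bases apart, went in opposite directions. COL4A5 rose from 37.2 and 37 to 68.5 and 64.4 (0.83, limma, adjusted p = 2.49e-09), and COL4A6 fell from 27.5 and 28.8 to 20.8 and 19.9 (-0.46, limma, adjusted p = 1.27e-06). Their ratio went from 1.35 and 1.28 to 3.29 and 3.24. COL4A3 fell (-0.45, limma, adjusted p = 0.000221), and COL4A4, read at 1.83 and 1.68 in cisplatin, did not pass the test (-0.02, limma, adjusted p = 0.909).

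**Figure D2:**
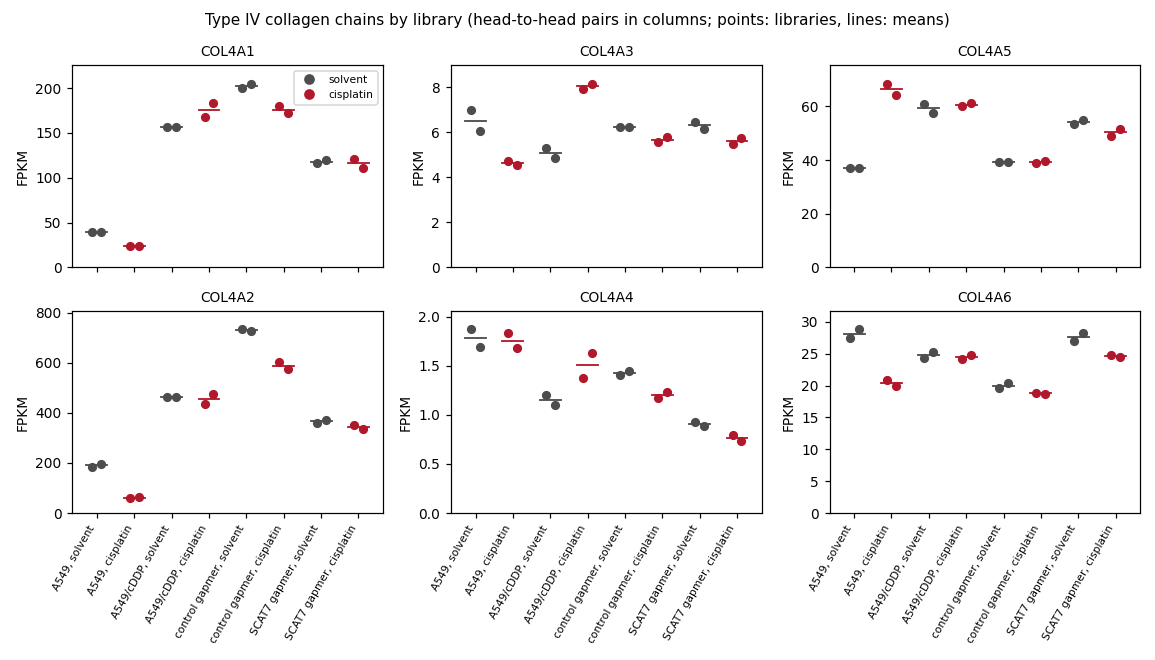
FPKM of the 6 type IV collagen genes in each library (points) with group means (lines), solvent in grey and cisplatin in red. COL4A1 and COL4A2 fall with cisplatin in A549 and lie higher in every A549/cDDP library, where COL4A2 reads 335 to 733 FPKM; COL4A5 rises with cisplatin in A549 while COL4A6 falls.

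Of the fibrillar chains, COL5A1 stood at 42.2 and 43.7 FPKM in solvent and at 15.2 and 15 in cisplatin (-1.48 ± 0.07, limma, adjusted p = 1.05e-09). COL27A1, a fibrillar collagen known from cartilage, went the other way, from 21.8 and 23.1 to 48.4 and 48.1 (1.09 ± 0.05, limma, adjusted p = 2.59e-09). COL1A1 fell by 0.32, and COL5A2, the usual partner of COL5A1, rose by 0.21. Both type VI chains rose a little, COL6A1 by 0.25 and COL6A2 by 0.18.

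Collagens of the epithelial anchoring complex rose. COL17A1 stood at 2.31 and 2.42 FPKM in solvent and at 13.3 and 13 in cisplatin (2.25 ± 0.07, limma, adjusted p = 6.02e-11), and COL7A1 went from 295 and 294 to 803 and 806 (1.45 ± 0.07, limma, adjusted p = 2.84e-09). Neither had overlapping groups, though how many of all genes tested show this was not counted. COL18A1 went from 75.1 and 74 to 33.7 and 33.2 (-1.14 ± 0.04, limma, adjusted p = 2.24e-10). COL16A1 rose by 0.71, COL12A1 fell by 0.68 and COL13A1 fell by 0.23. COL8A1 did not pass the test and read at most 0.0288 FPKM in A549.

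LAMA3 and LAMB3, which sit in 1 laminin trimer, parted. LAMA3 went from 10.7 and 10.9 FPKM to 3.76 and 3.19 (-1.52 ± 0.06, limma, adjusted p = 7.3e-10), and LAMB3 from 17.7 and 17.7 to 51 and 50.3 (1.49 ± 0.05, limma, adjusted p = 4.25e-11). The ratio of LAMB3 to LAMA3 therefore went from 1.65 and 1.61 in solvent to 13.6 and 15.8 in cisplatin. LAMA4 fell by 0.79, LAMB1 by 0.77 and LAMA5 by 0.65, while LAMC1 rose by 0.34 and LAMB2 by 0.31, so that LAMB2 relative to LAMB1 went from 0.35 and 0.36 to 0.756 and 0.749.

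**Figure D3:**
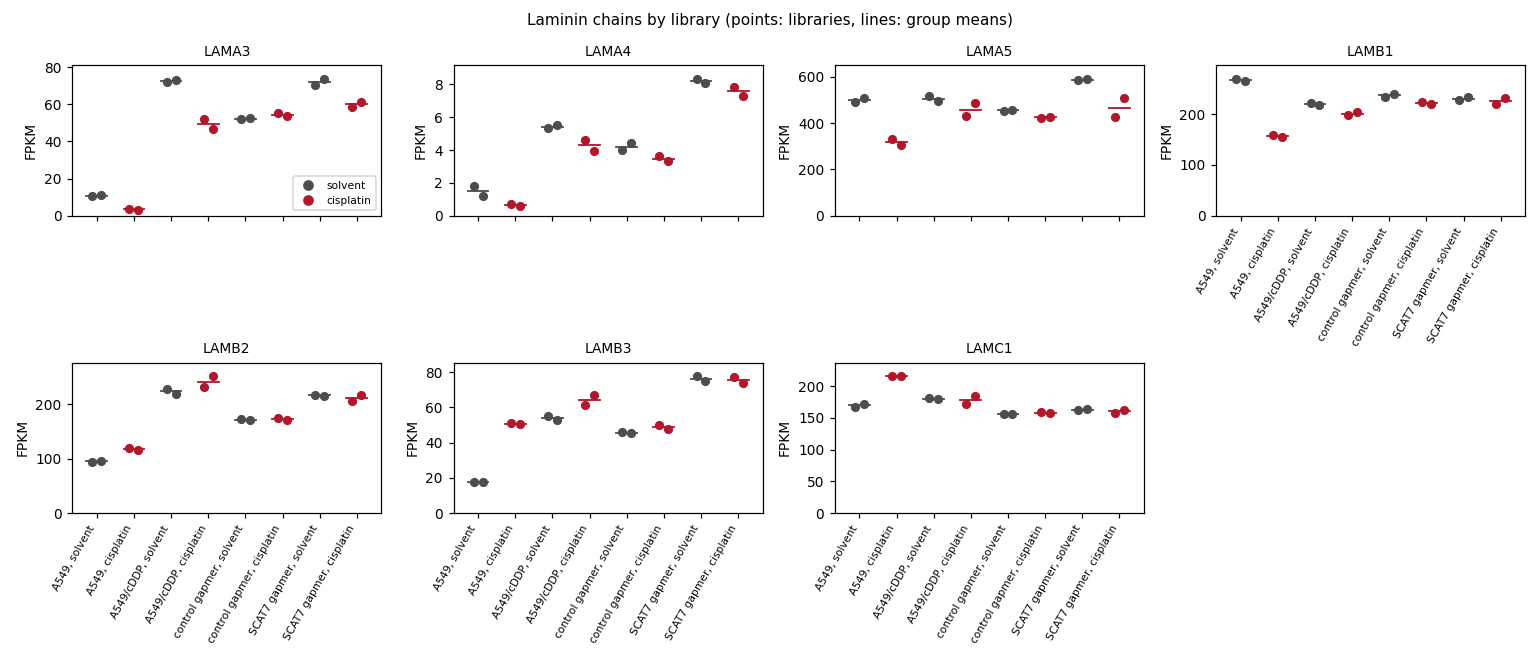
FPKM of the 7 tested laminin chains in each library (points) with group means (lines), solvent in grey and cisplatin in red. In A549, LAMA3 falls to 3.76 and 3.19 FPKM with cisplatin while LAMB3 rises to 51 and 50.3; LAMC1 stays between 156 and 216 FPKM in all libraries.

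Among linkers and proteoglycans, AGRN rose by 0.63, PXDN by 0.51, HSPG2 by 0.41 and NID1 by 0.31, and NID2 fell by 0.53. Of the glycoproteins, TGFBI stood at 773 and 782 FPKM in solvent and at 385 and 369.6 in cisplatin (-1.04 ± 0.06, limma, adjusted p = 1.37e-08), and FN1 at 248 and 241 against 138 and 129 (-0.87 ± 0.05, limma, adjusted p = 7.88e-09). SPARC fell by 0.41, and FSTL1 did not pass the test (-0.07, limma, adjusted p = 0.102). Scaling by median ratio ended the call of COL6A2, and quantile normalization those of COL6A2 and NID1. The summed fibroblast marker list went from 6.98 to 7.71 FPKM in solvent to 42.5 to 47.3 in cisplatin, of which ACTA2 read 45 and 40.6. THY1 fell (-0.35), PDGFRB had group means of 0.0301 and 0.287, and FAP, POSTN and PRRX1 were at 0 in cisplatin. Of the 8 tested epithelial genes 2 rose and 4 fell (median -0.20). The part of either list in these changes was not tested.

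In A549/cDDP the same drug and time changed fewer members. Of the 35 tested, 6 rose and 5 fell, where 3.55% of all genes tested rose, 4.55% fell and 8.1% were called. The members' median change was 0.00, as it was over all genes tested, and 0 members reached 2-fold in either direction. COL13A1 went from 3.03 and 3 FPKM to 1.53 and 1.68 (-0.74 ± 0.09, limma, adjusted p = 0.000815). COL4A3 rose from 5.31 and 4.87 to 7.91 and 8.15 (0.61 ± 0.08, limma, adjusted p = 0.000792), the largest rise here, while its head-to-head partner COL4A4, at 1.2 and 1.1 against 1.38 and 1.63, did not pass the test (0.28, limma, adjusted p = 0.155). LAMA3 fell from 72.1 and 72.8 to 51.9 and 46.8 (-0.55 ± 0.06, limma, adjusted p = 0.000594), and FN1 from 282 and 267 to 223 and 213 (-0.33 ± 0.05, limma, adjusted p = 0.0016).

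Smaller rises were called for LAMB3 (0.25), COL6A1 (0.24), COL6A2 (0.22), FSTL1 (0.18) and COL7A1 (0.28, limma, adjusted p = 0.0304). COL7A1 read 652 and 649.5 FPKM in solvent and 713 and 878 in cisplatin, and without the second cisplatin library its change was 0.13 (limma, adjusted p = 0.127). COL18A1 fell by 0.17 and LAMB1 by 0.13. COL4A1, COL4A2, COL5A1, COL17A1, COL27A1 and TGFBI, which changed in A549, did not pass the test here: COL4A2 had a change of -0.03 ± 0.05 and COL17A1 of 0.04 ± 0.07. The count of 11 was 5 without the second solvent library or without the second cisplatin library, 7 without the first solvent library, and 14 without the first cisplatin library.

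The difference between the responses was tested as an interaction. It passed the threshold for 30 of 35 members, 16 with a higher and 14 with a lower change in A549/cDDP than in A549, where 21.5% and 25.6% of all genes tested did, 47% in all. The members' median difference was 0.25, against -0.06 over all genes. Changes were lower in A549/cDDP than in A549 for COL17A1 (-2.21 ± 0.10, limma, adjusted p = 5.8e-09), LAMB3 (-1.25), COL7A1 (-1.17) and COL27A1 (-1.12). They were higher for COL5A1 (1.66 ± 0.09, limma, adjusted p = 2.91e-08), COL4A2 (1.59 ± 0.07, limma, adjusted p = 3.45e-09), TGFBI (1.15) and COL4A3 (1.06). The members whose difference did not pass were COL4A4, COL6A1, COL6A2, COL8A1 and SPARC; for COL6A1 the difference was -0.01 ± 0.06.

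**Figure D4:**
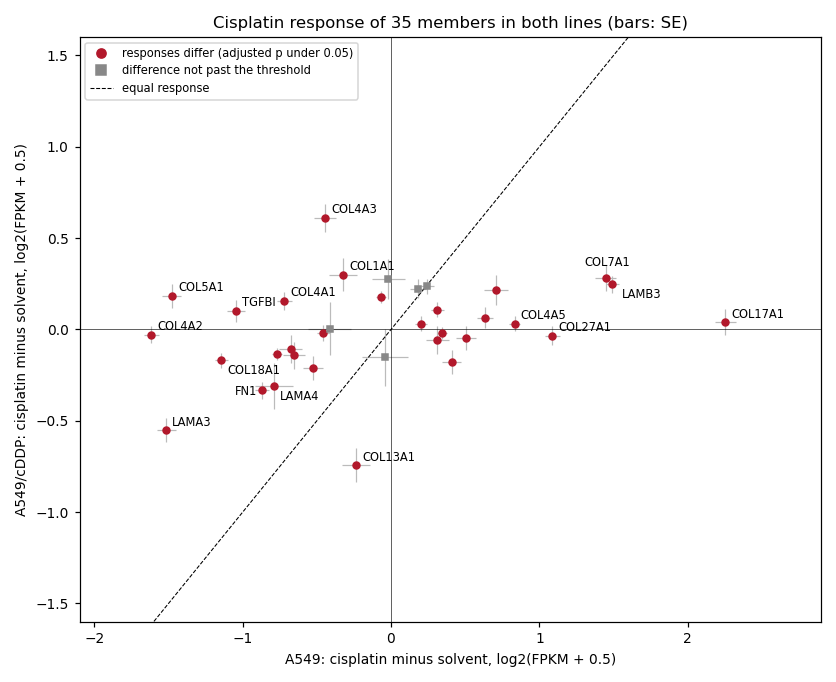
Log2 change with cisplatin of the 35 tested members in A549 (x axis) and in A549/cDDP (y axis), with SE bars; the dashed line marks equal response. Red points are the 30 members whose responses differed; COL17A1 lies at 2.25 and 0.04, COL4A2 at -1.61 and -0.03.

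In cisplatin the lines were further apart for some chains. Of the members tested, 29 were higher in A549/cDDP and 4 lower, where 37% of all genes tested were higher, 29.5% lower and 66.5% called. The members' median difference was 0.77, against 0.08 over all genes, and 16 were at least 2-fold higher and 0 at least 2-fold lower. COL5A1 read 15.2 and 15 FPKM in A549 and 158 and 187 in A549/cDDP (3.47 ± 0.07, limma, adjusted p = 1.44e-12). LAMA3 read 3.76 and 3.19 against 51.9 and 46.8 (3.65 ± 0.06, limma, adjusted p = 7.99e-13). For both genes the gap was wider than in solvent. COL4A2 read 61.7 and 62.4 against 434 and 477 (2.86 ± 0.05, limma, adjusted p = 5.7e-13).

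COL4A1 read 23.2 and 24.2 against 167 and 183 (2.86), so that the partners of this pair differed by the same amount in cisplatin, and COL1A1 read 7.2 and 7.96 against 42.3 and 52.7 (2.56). PXDN was 5.66 higher, COL6A2 3.85 and COL6A1 3.5. The 4 lower members were COL17A1 (-0.85), AGRN (-0.47), LAMC1 (-0.27) and COL4A5 (-0.13). COL7A1, 1.14 higher in solvent, did not pass the test in cisplatin (-0.02, limma, adjusted p = 0.78).

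The control gapmer was itself compared with no transfection, in A549/cDDP in solvent, since it is the reference of the SCAT7 gapmer. It changed 25 members, 8 higher and 17 lower, where 20.7% of all genes tested were higher, 19% lower and 39.7% called. The members' median was -0.19, against -0.01 over all genes, and 0 members reached 2-fold. TGFBI read 638 and 614 FPKM untransfected and 1063 and 1037 with the control gapmer (0.75 ± 0.06, limma, adjusted p = 1.58e-06). COL4A2 read 464 and 464 against 733 and 725 (0.65 ± 0.05, limma, adjusted p = 6.77e-07). COL6A1 went the other way, from 164 and 164 to 103 and 104 (-0.66 ± 0.04, limma, adjusted p = 1.94e-07).

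COL4A5, at 60.8 and 57.7 against 39.1 and 39.1, was lower with the control gapmer (-0.59), as were COL27A1 (-0.58), COL7A1 (-0.55), LAMA3 (-0.47) and COL16A1 (-0.46). COL4A1 (0.37), NID1 (0.45), COL13A1 (0.41), AGRN (0.38), COL4A3 (0.27) and LAMB1 (0.10) were higher. Transfection, the control gapmer and any difference in handling cannot be told apart here.

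With the control gapmer, cisplatin changed 5 members, 0 up and 5 down, where 1.67% of all genes tested rose, 0.855% fell and 2.53% were called. The members' median change was -0.10, against 0.02 over all genes. TGFBI went from 1063 and 1037 FPKM to 834 and 814 (-0.35, limma, adjusted p = 0.00964), COL5A1 from 152 and 148 to 122 and 117 (-0.33, limma, adjusted p = 0.0202), and COL4A2 from 733 and 725 to 602 and 574 (-0.31, limma, adjusted p = 0.00443). FN1 (-0.24) and COL18A1 (-0.24) also fell. These 5 calls depended on each of the 4 libraries, since most of them no longer passed with any 1 left out.

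The SCAT7 gapmer was compared with the control gapmer in solvent. Of the members tested, 19 were higher and 7 lower, where 33.2% of all genes tested were higher, 22.7% lower and 55.8% called. The members' median difference was 0.20, against 0.06 over all genes, and TGFBI was the 1 member that differed by at least 2-fold on this scale; by the ratio of means COL8A1 also did, 2.2-fold. The 7 lower members were COL1A1, COL4A1, COL4A2, COL4A4, COL5A1, COL18A1 and TGFBI. The 19 higher ones included 5 laminin chains (LAMA3, LAMA4, LAMA5, LAMB2 and LAMB3), both type VI chains, and the pair COL4A5 and COL4A6. Of these, LAMA3 (-0.01), LAMB2 (-0.05) and COL6A2 (0.12) were not called against untransfected cells in solvent, and COL4A5 (-0.13) and COL6A1 (-0.13) were lower there.

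Both chains of the pair on chromosome 13 were lower. COL4A2 read 733 and 725 FPKM after the control gapmer against 359 and 372 (-0.995 ± 0.05, limma, adjusted p = 7.06e-09), and COL4A1 read 199.8 and 205 against 116 and 119.6 (-0.78 ± 0.05, limma, adjusted p = 8.43e-08). Untransfected cells read 464 and 464 for COL4A2 and 157 and 157 for COL4A1, between the 2 gapmers in each case. Against untransfected cells the differences were -0.34 (limma, adjusted p = 7.37e-05) and -0.41 (limma, adjusted p = 2.41e-05), so the direction was kept at a smaller size. The pair on chromosome X was higher by 0.47 (COL4A5, 39.1 and 39.1 against 53.5 and 54.9) and 0.46 (COL4A6, 19.6 and 20.4 against 27 and 28.2). Against untransfected cells COL4A5 was lower (-0.13, limma, adjusted p = 0.0191) and COL4A6 higher by less (0.147, limma, adjusted p = 0.0119). On chromosome 2, COL4A3 did not pass the test (0.02) and COL4A4 was lower, at 1.41 and 1.45 against 0.928 and 0.89 (-0.45, limma, adjusted p = 0.00363). Against untransfected cells COL4A4 did not pass (-0.227, limma, adjusted p = 0.101) and COL4A3 was higher (0.284, limma, adjusted p = 0.00712).

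TGFBI read 1063 and 1037 FPKM after the control gapmer, against 485 and 528 (-1.05 ± 0.06, limma, adjusted p = 3.27e-08). Untransfected cells read 638 and 614, from which the SCAT7 gapmer differed by less (-0.31, limma, adjusted p = 0.00106). LAMB3 read 46.1 and 45.3 against 77.6 and 74.8 (0.73 ± 0.05, limma, adjusted p = 5.84e-08) and was also higher than in untransfected cells (0.49, limma, adjusted p = 2.5e-06). LAMA4 read 4.03 and 4.4 against 8.33 and 8.1 (0.89 ± 0.13, limma, adjusted p = 8.53e-05), and against untransfected cells it was 0.55 higher. COL8A1 read 0.782 and 0.686 against 1.6 and 1.63 (0.78 ± 0.15, limma, adjusted p = 0.000984).

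COL6A1 read 103 and 104 FPKM after the control gapmer against 147 and 153 (0.53, limma, adjusted p = 4.09e-07), and against untransfected cells, at 164 and 164, the sign changed (-0.13, limma, adjusted p = 0.0203). COL16A1 read 18.2 and 17.4 against 25.5 and 25.5 (0.51, limma, adjusted p = 0.000235), and 24.9 and 24.5 untransfected, from which the SCAT7 gapmer did not differ past the threshold (0.04, limma, adjusted p = 0.688). For COL6A1 and COL16A1 the control gapmer is therefore the low group. Against untransfected cells in solvent the SCAT7 gapmer left 11 members higher and 9 lower, where 30.6% of all genes tested were higher, 22.7% lower and 53.3% called.

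**Figure D5:**
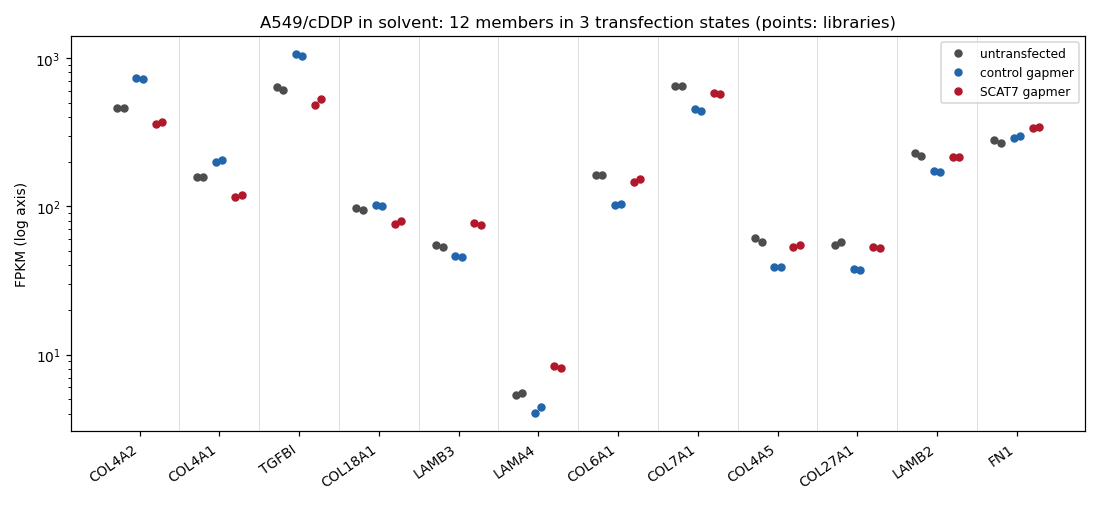
FPKM on a log axis of 12 members in A549/cDDP in solvent, untransfected (grey) or transfected with the control (blue) or the SCAT7 gapmer (red); each point is a library. The SCAT7 gapmer libraries lie lowest for COL4A1, COL4A2, TGFBI and COL18A1 and highest for LAMB3, LAMA4 and FN1, while for COL6A1, COL7A1, COL4A5, COL27A1 and LAMB2 the control gapmer libraries lie lowest.

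In cisplatin the SCAT7 gapmer left 16 members higher and 6 lower than the control gapmer, where 28.6% of all genes tested were higher, 21.1% lower and 49.7% called. The members' median difference was 0.14, against 0.04 over all genes. LAMA4, at 3.64 and 3.31 FPKM against 7.86 and 7.29, was the 1 member past 2-fold on this scale (1.02 ± 0.13, limma, adjusted p = 3.85e-05); by the ratio of means it was 2.18-fold higher and COL8A1 2.63-fold. COL4A2 read 602 and 574 against 350.0 and 335 (-0.78 ± 0.05, limma, adjusted p = 1.07e-07), and COL4A1 read 181 and 172 against 121 and 111 (-0.60 ± 0.05, limma, adjusted p = 1.27e-06).

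TGFBI read 834 and 814 against 455 and 524 (-0.76), LAMB3 49.7 and 47.8 against 77.4 and 73.9 (0.63), and COL8A1 0.496 and 0.736 against 1.37 and 1.87 (0.92). COL6A1 read 108 and 105 against 156 and 155 (0.55), and NID2, nidogen-2, 5.95 and 6.38 against 9.11 and 9.23 (0.54). Against untransfected cells in cisplatin 10 members were higher and 15 lower, where 28.5% of all genes tested were higher, 18.9% lower and 47.5% called. The members' median was -0.14, against 0.05 over all genes, and opposite in sign to that against the control gapmer. Members higher than with the control gapmer and lower than untransfected were COL6A1 (0.55 and -0.31), COL4A5 (0.35 and -0.26), LAMB2 (0.29 and -0.19), FSTL1 (0.17 and -0.23) and COL5A2 (0.15 and -0.14). The call of COL5A2 against the control gapmer ended with median ratio scaling. The cisplatin response itself differed between the gapmers for 0 of 35 members in limma, where 0.93% of all genes tested were called (0.488% higher and 0.442% lower), and 7 members were under an unadjusted p of 0.05; no other tool was run. Against untransfected cells that response differed for 4 members, where 6.08% of all genes tested were called.

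COL1A2, untested for its low level, read at most 0.0287 FPKM in the 12 libraries without the SCAT7 gapmer. It read 0.0531 and 0.349 with the SCAT7 gapmer in solvent and 0.285 and 0.305 in cisplatin. DCN, decorin, a fibroblast marker, read 0 and 0.232, then 0.304 and 0.377, in the same 4 libraries and at most 0.0233 in the others. Other weak genes were higher in these 4 libraries too. COL3A1 read 0.319 to 0.389 there and at most 0.202 elsewhere. CD68, an immune marker, read 0.405 to 0.958 there and at most 0.148 elsewhere. PDGFRA and PDGFRB had group means of 0.193 and 0.226 with the SCAT7 gapmer in solvent, against 0.19 and 0.194 with the control gapmer. In cisplatin these were 0.224 and 0.22 against 0.109 and 0.111. The summed fibroblast list was 25.3 to 35.3 FPKM in the 4 control gapmer libraries and 31.2 to 34.3 in the 4 SCAT7 gapmer libraries, and 2 of its 10 genes reached 1 FPKM in each group, ACTA2 and THY1 with the control gapmer, ACTA2 and FAP with the SCAT7 gapmer. FAP read 0.624 and 0.482 FPKM against 2.28 and 1.57 in solvent (1.19) and 0.453 and 0.436 against 1.44 and 1.45 in cisplatin (1.04). FAP reached the mean of 0.5 FPKM needed for testing only through the SCAT7 gapmer libraries, so its p-values are left out. THY1 was lower (-0.82 in solvent and -0.58 in cisplatin), and PRRX1 read at most 0.0151 with the control gapmer and 0.0398 to 0.137 with the other. Of the 8 tested epithelial genes 1 was higher and 5 were lower, in solvent and in cisplatin. In solvent the reference had moved too: relative to untransfected cells, control gapmer libraries had 4 of these genes higher and 2 lower (median 0.27). CDH1 averaged 2.92 FPKM in untransfected cells, 5.47 in the control group and 3.51 after the SCAT7 gapmer. For EPCAM, KRT7, KRT8 and KRT18 the SCAT7 gapmer mean lay below the untransfected mean, a difference for which no test was read here. The part of these markers in the matrix differences was not tested.

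Enzymes that modify and cross-link collagen were followed as a list of 31 genes, 24 of them tested. In A549/cDDP against A549 in solvent 17 were higher and 1 lower (75% called, against 70.2% of all genes tested; median 0.34), among them LOXL4, a lysyl oxidase (0.598 and 0.615 against 6.87 and 6.78 FPKM, 2.73), P4HA2, a prolyl hydroxylase (1.34), LOX (1.27) and PLOD2, a lysyl hydroxylase (1.25). With cisplatin in A549, 6 rose and 14 fell (83.3% called, against 60.4%; median -0.29), with LOXL2 at 191 and 194 against 68.6 and 66.9 (-1.50), P4HA3 at -1.64 and LOXL4 at 1.45. In A549/cDDP 2 rose and 1, LOXL2, fell (-0.32; 12.5% called, against 8.1%). With the SCAT7 gapmer in solvent 6 were higher and 10 lower (66.7% called, against 55.8%), and LOX was lower (-0.64).

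Matrix receptors were followed as a list of 27 genes, 24 of them tested. In the resistant line in solvent 16 were higher and 6 lower (91.7% called, against 70.2% of all genes tested; median 0.98). ITGA2, the alpha chain of a collagen-binding integrin, read 14.3 and 14.3 against 100.3 and 105 FPKM (2.80), SDC4, a syndecan, was 2.26 higher, and ITGB4, the integrin beta chain of hemidesmosomes, 2.11 higher. With cisplatin in A549, 8 rose and 11 fell (79.2% called, against 60.4%), with ITGB6 at 6.93 and 6.63 against 1.49 and 1.48 (-1.88). With the SCAT7 gapmer in solvent 9 were higher and 8 lower (70.8% called, against 55.8%), with ITGA10 at 1 and 1.29 against 6.48 and 5.7 (2.004) and ITGA2 0.88 higher.

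Of 40 other collagen, laminin and basement membrane genes, 18 were tested, since the rest were too low. In the resistant line in solvent 12 were higher and 3 lower (83.3% called, against 70.2% of all genes tested), with NTN1, a netrin, 2.42 higher. With cisplatin in A549, 10 rose and 4 fell (77.8% called, against 60.4%), with COL9A2 from 0.0759 and 0 to 6.46 and 7.08 FPKM, LAMC3 from 0.897 and 1.14 to 9.65 and 9 (2.70) and FRAS1, a protein of embryonic basement membranes, from 8.3 and 9.25 to 1.19 and 1.34 (-2.39). With the SCAT7 gapmer in solvent 7 were higher and 5 lower (66.7% called, against 55.8%). COL9A3 read 0.234 and 0.258 FPKM after the control gapmer against 26.2 and 17.6 (4.88 ± 0.23), COL20A1 was 2.69 higher, COL11A2 2.31 higher, and FBLN1, fibulin-1, lower (-1.43). The SCAT7 gapmer libraries alone lift the mean of COL9A3 past the level for testing, so its p-value is left out. These 3 collagens differed by more than any of the 35 members did in this comparison. They were not set against untransfected cells here.

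The TGF-beta pathway, a known regulator of matrix genes, was followed as 20 genes, all tested. In the resistant line in solvent 12 were higher and 4 lower (80% called, against 70.2% of all genes tested; median 0.30). The known target PMEPA1 was 1.2 higher, the target CCN2 lower (21 and 20.4 against 9.69 and 10.5 FPKM, 2.05-fold by the ratio of means) and the inhibitor SMAD6 lower (-1.36). With cisplatin in A549, 6 rose and 9 fell (75% called, against 60.4%), with LTBP1, which holds the latent ligand in matrix, at -2.01, TGFBR1 at 1.29 and PMEPA1 at -0.85. In A549/cDDP 4 rose and 3 fell (35% called, against 8.1%), among them CCN2 (0.51) and LTBP1 (-0.75). With the SCAT7 gapmer in solvent 5 were higher and 8 lower (65% called, against 55.8%), and CCN2 was lower (-0.36).

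Whether reads were counted by strand is not given in the sources used here, so reads of a member and of a gene on the opposite strand cannot be told apart where their exons overlap. Such overlaps were found for 12 members and were large for 3. RTRAF, at a mean of 69 FPKM, covers 30.0% of the exon bases of NID2, which read 4.39 to 9.23 FPKM. SLC19A1, at 23 FPKM, covers 16.4% of those of COL18A1, and LDLRAD2, at 2.5 FPKM, covers 11.7% of those of HSPG2. COL4A1 and COL4A2 overlap by 1.4 kb of their spans and share no exon bases.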

How the data were processed

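The authors deposited 1 FPKM column per library; the submitters' processing notes name TopHat2, HTSeq 0.6.1 and hg38, and per the labels' protocols oligo(dT) beads were used to select mRNA. Gene symbols and positions came from GENCODE 29, which held 56868 of 60448 identifiers. Low values (those of only a few fragments, by FPKM and exon length) were whole fragments within 0.02 in 72.2% to 78.6% of cases, which gave the depths. Single-gene counts stay approximate. The 17198 genes averaging 0.5 FPKM or more over 16 libraries were placed on log2(FPKM + 0.5), which understates changes of low genes, and fitted with limma 3.58.1 (R 4.3.3): 1 mean per group, 8 residual degrees of freedom, trended prior, two-sided tests, Benjamini-Hochberg adjustment over all genes, threshold 0.05. The fit was tested on simulated data. Members and lists were chosen with earlier results of these data known. Values were given for up to 8 called members per comparison with the largest change and at least 1 FPKM in the higher group, for partners of type IV pairs, and for up to 4 called genes per other list; COL1A2, marker genes and members given for contrast were added after their values were seen. The comparisons share libraries. Alternatives were 2 pseudocounts, 2 filters, 2 scalings, a replicate block, only the libraries compared, each library left out, and, added after seeing the data, untransfected cells as reference.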

Additional observations from a re-analysis of the deposited data

Results flagged for a closer look

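The cisplatin response differed between A549/cDDP and A549 in a test of the difference itself for 30 of the 35 members tested. The 8 members with the largest differences (log2 change in A549/cDDP minus that in A549) were COL17A1 at -2.21, COL5A1 at 1.66, COL4A2 at 1.59, LAMB3 at -1.25, COL7A1 at -1.17, TGFBI at 1.15, COL27A1 at -1.12 and COL4A3 at 1.06. In 7 of them the larger change was the one in A549; COL4A3 had changes of -0.45 in A549 and 0.61 in A549/cDDP, both past the threshold. The share of all genes tested with such a difference was 47%, and the part of the wider drug response in these differences was not tested.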

How the results depend on the processing

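The 11 members called for cisplatin in A549/cDDP became 7 with no filter on low values and 4 with only the libraries compared, and 5 to 14 with 1 library left out. The 5 called with the control gapmer became 3 with no filter, 3 with only the libraries compared, and 0 to 2 with 1 library left out. The 0 called for the difference of that response between gapmers became 4 against untransfected cells, and 0 to 1 with 1 library left out (1 without either SCAT7 gapmer library in cisplatin). Of the SCAT7 gapmer differences COL6A1 reversed against untransfected cells, to -0.13 in solvent and -0.31 in cisplatin; COL4A5 reversed in both as well, and COL5A2, LAMB2 and FSTL1 in cisplatin. The cause was not tested. For the other 7 comparisons the total counts stayed within 1.5 times under every alternative run, but against untransfected cells the split of higher and lower went from 19 and 7 to 11 and 9 in solvent and from 16 and 6 to 10 and 15 in cisplatin. The members with the largest changes, up to 8 called per comparison with at least 1 FPKM in the higher group, gave 69 values. Of these, the replicate block, both pseudocounts and median ratio scaling kept 69 on the same side of the threshold. Quantile normalization kept 68, no filter 65 and only the libraries compared 63. Smaller changes named above were not all kept. Median ratio scaling ended the calls of LAMC1, NID2 and FN1 for the lines in solvent, and of COL18A1 and LAMB1 for cisplatin in A549/cDDP. For the SCAT7 against the control gapmer it ended those of COL17A1 and FSTL1 in solvent, and of COL5A2 and HSPG2 in cisplatin. Median ratio scaling moved the share of higher calls with the control gapmer from 66.2% to 52.6%. Replicate numbers did not pair the libraries: the correlation of deviations over 28 pairs of groups ran from -0.187 to 0.119, with 2 over 0.1. With the replicate block the counts were 33 for the lines in solvent, 31 for cisplatin in A549, 11 in A549/cDDP, 30 for their difference, 33 for the lines in cisplatin, 5, 26, 22 and 0 for the gapmer comparisons in the order given, and 26 for the control gapmer against no transfection. Groups of 2 libraries and FPKM without counts limit the precision of all values.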
